A study of Mus musculus with 374 samples.

Results

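Granulocyte wells rich in 3 specific granule transcripts were set against granulocyte wells poor in them. Of the 374 labelled single cells, 96 were granulocytes in plate rows G to J, and 94 of these had at least 500 UMIs (unique molecular identifiers, which count molecules rather than reads) on mouse genes. The wells were ordered by the share of their mouse UMIs on Ltf, Camp and Ngp together. The 31 wells with the highest share are called granule-rich and the 31 with the lowest share granule-poor, which makes 62 wells, and 32 wells lay between them. The wells were thus chosen by the measured levels of these 3 genes, so those levels are a description, and the comparisons below are on the other genes.

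All cells came from 1 C57BL/6 female of 10 to 13 weeks. Granulocytes, B lymphocytes, erythroblasts and progenitor/stem cells were sorted from its bone marrow, and T lymphocytes from its thymus. The granulocytes were gated as Mac1+ Gr1+, each cell was deposited in 1 well of 1 plate of 384 wells with its fluorescence recorded, and CEL-seq2 tagged the 3' end of its transcripts. With 1 mouse, the granule-rich and granule-poor wells are 1 sample each and the wells are not replicates. No test was made, and the 95% intervals given are exact conditional binomial intervals that cover counting error only.

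Neutrophils make their granules in an order as they mature in the bone marrow. Primary (azurophil) granules come first, specific granules follow at the myelocyte stage, and gelatinase granules come last, close to release into the blood. Each granule holds the proteins that are being made when it forms, so granule transcripts mark how far a neutrophil has matured. Ltf encodes lactoferrin, which binds iron, Camp the antimicrobial cathelicidin, and Ngp neutrophilic granule protein, and all 3 proteins are stored in specific granules.

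The promoters of Ltf, Camp and Ngp are shown because they are the 3 genes that chose the wells. That of Lcn2, which did not choose the wells, is shown beside them. Lcn2 is the other specific granule gene with the most UMIs in the granule-rich wells. The sequences are the 250 bases before the gene start in RefSeq (GRCm38.p6), read 5' to 3' on the strand of the gene. The GENCODE M21 annotation places the start of each of these genes further upstream. The window of Lcn2 thus lies wholly inside its GENCODE gene, at 32384633 to 32388252. The windows of Ltf, Camp and Ngp lie partly inside theirs, so the letters are upstream of the RefSeq start only. Capitals mark TTNNGNAA on either strand, a loose form of the letters that C/EBP factors bind. C/EBP epsilon, encoded by Cebpe, is known to be needed for specific granules to form. The windows are chr9:111019042-111019291 on the forward strand for Ltf, chr9:109849457-109849706 on the reverse strand for Camp, chr9:110419558-110419807 on the forward strand for Ngp and chr2:32387740-32387989 on the reverse strand for Lcn2.
Ltf: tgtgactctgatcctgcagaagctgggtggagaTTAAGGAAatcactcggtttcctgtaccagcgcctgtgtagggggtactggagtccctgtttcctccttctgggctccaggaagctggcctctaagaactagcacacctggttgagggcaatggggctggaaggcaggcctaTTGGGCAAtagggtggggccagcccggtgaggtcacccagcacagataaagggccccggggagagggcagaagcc
Camp: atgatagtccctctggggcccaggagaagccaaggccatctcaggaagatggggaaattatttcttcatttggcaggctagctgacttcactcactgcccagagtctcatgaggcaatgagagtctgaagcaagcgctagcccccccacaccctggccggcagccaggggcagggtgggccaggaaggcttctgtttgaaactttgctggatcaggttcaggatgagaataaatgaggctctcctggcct
Ngp: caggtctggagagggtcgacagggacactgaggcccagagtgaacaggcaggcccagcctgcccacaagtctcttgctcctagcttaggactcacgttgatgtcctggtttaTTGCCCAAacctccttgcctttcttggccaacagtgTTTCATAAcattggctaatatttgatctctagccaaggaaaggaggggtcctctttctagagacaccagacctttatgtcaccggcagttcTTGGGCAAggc
Lcn2: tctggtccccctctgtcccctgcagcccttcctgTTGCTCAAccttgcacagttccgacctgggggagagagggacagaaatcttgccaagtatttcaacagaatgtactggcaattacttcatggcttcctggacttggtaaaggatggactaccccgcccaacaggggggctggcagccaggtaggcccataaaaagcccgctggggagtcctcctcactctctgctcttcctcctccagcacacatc
Relative to the RefSeq gene start the motif begins at -217 and -75 in Ltf, at -138, -102 and -11 in Ngp and at -216 in Lcn2. It is not in these letters of Camp. Of all 32851 promoters of this length 36.8% hold it, and 9 of the 17 promoters of 16 other specific granule genes do (52.9%). For the 10 genes with the highest ratios in the granule-rich wells, 9 promoters of 7 genes were found, and 3 of these hold it (33.3%). A match is a description of letters and says nothing on binding.

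The share of the 3 genes ran from 3.60% to 11.5% (median 6.71%) in the granule-rich wells, from 0.122% to 3.56% (median 0.463%) in the middle wells and from 0 to 0.119% (median 0.0522%) in the granule-poor wells. The wells next to the limits were thus close to each other, at 0.119% and 0.122% and at 3.56% and 3.60%. No well lay between 0.539% and 1.19%, a step inside the middle wells that left 49 wells below it and 45 above. In the granule-rich wells Ngp took 1.16% to 5.91% of the UMIs, Camp 0.699% to 3.36% and Ltf 0.695% to 2.60%, and each of the 31 wells had a UMI on each gene. In the granule-poor wells 5 of 31 had no UMI on any of the 3 genes. The T lymphocytes of the same plate, which should lack these transcripts, had a median of 0.0394% and a highest well of 0.261% over 42 wells. All 31 granule-poor wells lay at or below that highest well, so their share cannot be told from free RNA.

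**Figure D1:**
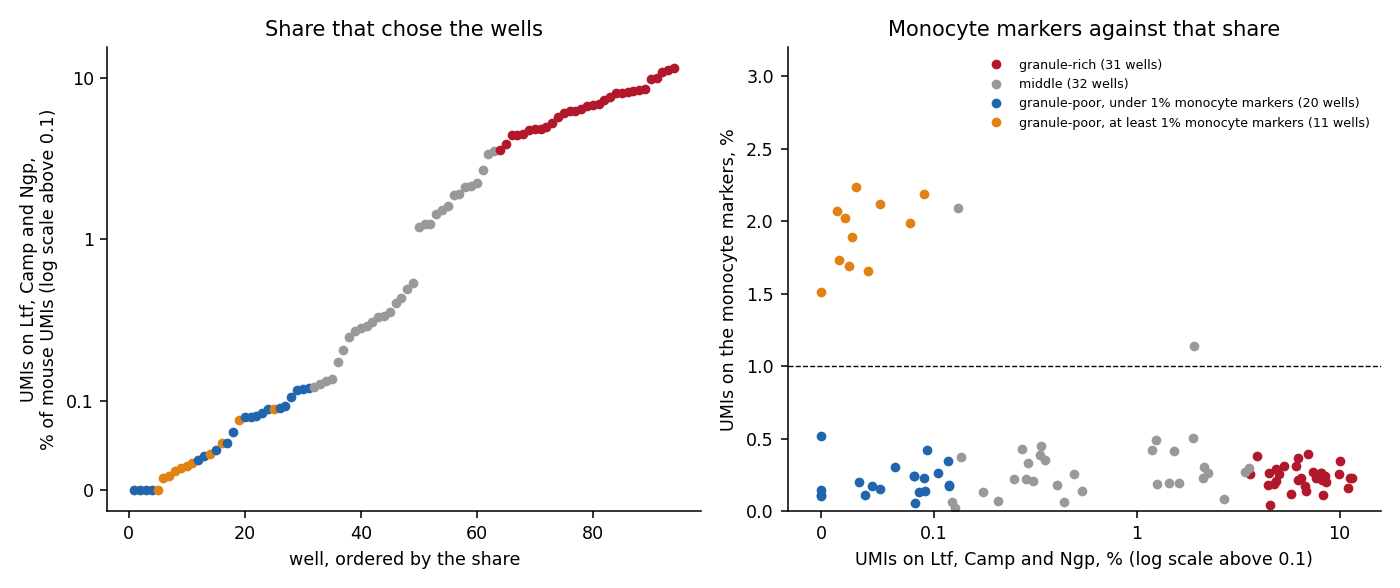
Share of UMIs on Ltf, Camp and Ngp in the 94 granulocyte wells in rising order (left; log scale above 0.1%), and the share of UMIs on 15 monocyte markers against it (right; 1 point per well, dashed line at 1%). The 31 granule-rich wells (red) lie at 3.60% to 11.5%, and 11 of the granule-poor wells (orange) stand above 1% monocyte markers while the other 20 (blue) lie at or below 0.518%.

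The granule-poor wells were of 2 kinds that the rule did not separate. In 11 of them the fixed list of 15 monocyte markers took 1.51% to 2.24% of the UMIs (of mouse UMIs without Ltf, Camp and Ngp, the base of every level below), and in the other 20 it took 0.0554% to 0.518%. S100a8 and S100a9, whose products form calprotectin, the main cytosolic protein of neutrophils, took 0 to 0.128% in these 11 wells, which is below the T lymphocyte median of 0.157%. In the other 20 wells they took 1.89% to 17.3%, and in the granule-rich wells 7.81% to 21.1%. The label of the sort, Mac1+ Gr1+, therefore held for wells with and without the defining transcripts of neutrophils. A limit of 1% on the monocyte markers was set after these values had been seen, and no granulocyte well lay between 0.518% and 1.14%. The comparison is given first as the rule defines it and then against the 20 other granule-poor wells.

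Depth moved with the groups. The median number of mouse UMIs per well was 4896 in the granule-rich wells, 2279 in the 20 other granule-poor wells and 5746 in the 11 monocyte-marker wells. The ERCC spike-in RNA took a median of 8.56%, 16.1% and 6.60% of the UMIs, which left 10.7, 5.21 and 14.2 mouse UMIs per ERCC UMI. Thinned to 1000 UMIs, a well showed a median of 453, 530 and 660 genes in the same order (1592, 1006 and 2322 unthinned). Haemoglobin transcripts took a median of 1.37%, 2.29% and 1.08%, and without the 10% of wells highest in them 78 genes were past 2-fold higher and 160 lower against all 31 granule-poor wells, and 59 and 74 against the 20. The groups were spread over the 4 plate rows, with 5 to 9 granule-rich wells, 3 to 6 of the 20 and 2 to 5 of the 11 in each row.

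In the list named other specific granule genes, Lcn2, Adpgk, Wfdc21, Anxa1, Itgb2l and Serpinb1a were all higher in the granule-rich wells. No measured member was lower by the limit of 2-fold. The list held 20 genes of specific granules or of the stage that makes them, chosen with earlier results of these data known. Of its 16 members with at least 50 UMIs in the wells compared, 13 were at least 2-fold higher and 0 at least 2-fold lower, beside 12.3% higher and 25.5% lower of all 643 genes measured. The median log2 ratio of the list was 2.54, and that of all genes was -0.32. The summed level of the list ran from 385 to 1180 UMIs per 10000 (median 617) in the granule-rich wells and from 31.5 to 398 (median 216) in the granule-poor wells, so the groups overlapped in a narrow range. TMM factors moved the median of all genes to -0.01 and the split of genes past 2-fold from 79 higher and 164 lower to 113 and 106, that is from 32.5% to 51.6% higher, so each ratio below is best read against that shift.

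Lcn2 encodes lipocalin 2, which captures bacterial siderophores. It ran from 74.9 to 354 UMIs per 10000 (median 157) in the granule-rich wells and from 0 to 84.3 (median 12.2) in the granule-poor wells. The ranges overlapped only at their ends, and the summed UMIs were 2576 and 145, a log2 ratio of 3.78 (interval 3.53 to 4.03). Wfdc21, which encodes a small secreted protein with a WAP domain, ran from 13.1 to 73.8 (median 38.6) and from 0 to 25.9 (median 2.17) UMIs per 10000, a log2 ratio of 3.40 (2.95 to 3.88). Anxa1, encoding the calcium-binding annexin A1, gave 631 and 57 UMIs and a log2 ratio of 3.09 (2.70 to 3.51). Itgb2l, which encodes an integrin beta chain like that of CD18, had a UMI in 30 of 31 granule-rich wells and in 1 granule-poor well, with 138 UMIs against 1 and an interval of the log2 ratio from 4.23 to 12.05. Abca13, a transporter gene, gave 53 UMIs against 1 (2.81 to 10.68).

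The highest log2 ratios by the naming rule belonged to Itgb2l, Lta4h, Adpgk, Syne1, Lcn2, Abca13, Cpne3, Serpinb1a, Wfdc21 and Zmpste24. Not all of these genes encode granule proteins. Adpgk encodes an ADP-dependent glucokinase; it had a UMI in 31 of 31 granule-rich wells (3.07 to 42.1 UMIs per 10000, median 19.0) and in 6 granule-poor wells (up to 17.0), a log2 ratio of 4.09 (3.27 to 5.07). Syne1, which encodes nesprin-1 of the nuclear envelope, gave 407 UMIs against 22, and Zmpste24, the protease that processes prelamin A, gave 83 against 7. Lta4h, the enzyme that makes leukotriene B4, gave 122 UMIs in 26 wells against 5 UMIs in 5 wells, a log2 ratio of 4.23 (2.97 to 5.88). Ltb4r1, a receptor for leukotriene B4, gave 69 against 8, a log2 ratio of 2.73 (1.67 to 4.00). Each of the 10 genes was higher in the granule-rich wells in all 4 plate rows. The 10 lowest were Ahnak, Fn1, Ccr2, F13a1, Ccl6, Gm5483, Zeb2, Ms4a6c, Mpeg1 and Crip1, among them 5 of the monocyte list, and the monocyte-marker wells held all or nearly all granule-poor UMIs of Ahnak, Fn1, Ccr2, F13a1, Ms4a6c and Crip1 but 0 of the 88 of Gm5483 and 50 of the 205 of Ccl6. In GENCODE M21 (GRCm38) Lcn2 lies on chromosome 2 at 32384633 to 32388252 (reverse strand), Itgb2l on chromosome 16 at 96422288 to 96443619 (reverse), Cybb on chromosome X at 9435252 to 9487771 (reverse) and Chil3 on chromosome 3 at 106147554 to 106167564 (reverse), and none of these overlaps another gene. Adpgk overlaps Bbs4, which had 0 UMIs in the 94 wells.

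Genes below the naming minimum in the same lists are given as counts. Cebpe had 45 UMIs in the granule-rich wells, 13 in the middle wells and 3 in the granule-poor wells, a log2 ratio of 3.53 (1.89 to 5.86). Id2, an inhibitor of helix-loop-helix factors, had 42, 14 and 4 (ratio 3.02, 1.55 to 4.96), and Fcnb, encoding ficolin B, had 39, 53 and 1. Cebpb went the other way with 4, 14 and 42 UMIs (ratio -3.77, -5.71 to -2.31). Among 7 measured myeloid transcription factors 1, Lmo4, was past 2-fold higher and 2, Irf8 and Zeb2, were past 2-fold lower, near the 12.3% and 25.5% of all genes, and the 11 monocyte-marker wells held 52 of the 53 granule-poor UMIs of Irf8 and 69 of the 77 of Zeb2.

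Against the 20 other granule-poor wells the specific granule list stayed high while its order changed. Of the same 16 members 13 were at least 2-fold higher and 0 lower, beside 15.0% higher and 20.9% lower of 407 genes, and the median log2 ratio was 2.44 against -0.13 for all genes. Chil3, which encodes the chitinase-like protein Ym1, had a UMI in 31 of 31 granule-rich wells (3.34 to 141 UMIs per 10000, median 49.8) and in 10 of the 20 (up to 15.8, median 1.47). Its log2 ratio was 4.31 (3.60 to 5.12), against 1.89 (1.66 to 2.12) when the 11 monocyte-marker wells were included, which held 179 of the 195 granule-poor UMIs. Reads of Chil3 may be shared with the near-identical Chil4.

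Cybb, the catalytic subunit of the NADPH oxidase, which neutrophils carry in the membrane of specific granules, was the only gene of 407 whose level in every granule-rich well lay above every one of the 20. It ran from 20.0 to 106 UMIs per 10000 (median 47.9) against 0 to 13.0 (median 0), with 7 of the 20 wells having a UMI. The log2 ratio was 4.05 (3.32 to 4.90) and 1.60 (1.36 to 1.83) with the monocyte-marker wells included, in which Cybb ran from 10.5 to 38.5. Other genes of the oxidase had smaller ratios. Cyba was at 0.99 (0.40 to 1.64), Ncf4 at 0.73 (-0.22 to 1.82) and Rac2 at 0.03 (-0.34 to 0.42), and 1 of 5 measured genes of the list was past 2-fold higher, beside 15.0% of all genes.

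Other members of the list spread widely in the same comparison. Serpinb1a, an inhibitor of the neutrophil serine proteases, had a UMI in 30 of 31 granule-rich wells and in 2 of the 20, with 145 UMIs against 2 and an interval of the log2 ratio from 2.74 to 7.67. Lyz2, encoding lysozyme, which all 3 granule types hold, was at 1.04 (0.88 to 1.21), Pglyrp1, which binds peptidoglycan, at 1.16 (0.80 to 1.53) and Mmp8, neutrophil collagenase, at 0.71 (0.42 to 1.01). Hp, encoding haptoglobin, was at -0.10 (-0.51 to 0.33), with overlapping wells. Mmp8 did not follow the ordering of the wells. It had no UMI in 6 of the 31 granule-rich wells and reached 103 UMIs per 10000 in others (median 39.6), while the middle wells had a higher median of 66.0 and the 20 other granule-poor wells one of 18.9. In the middle wells 14 of the 16 members had a summed level between those of the granule-rich and the 20 other granule-poor wells, beside 61.2% of the 407 genes.

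**Figure D2:**
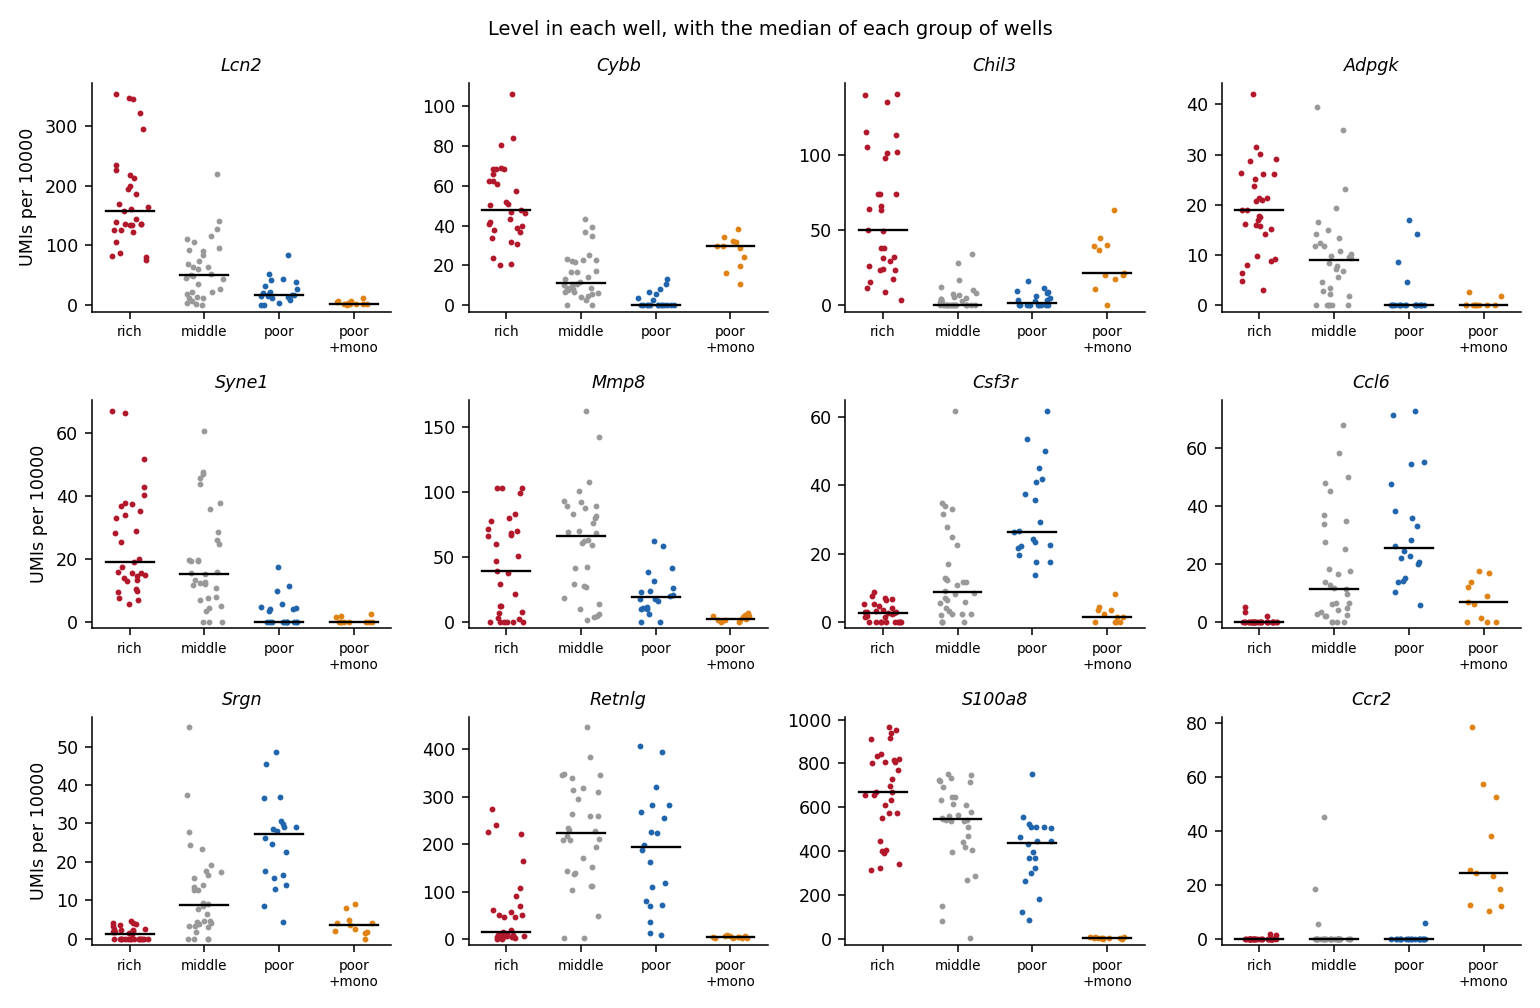
Level of 12 genes in each well in UMIs per 10000, with the median of each group as a bar: 31 granule-rich wells (rich), 32 middle wells, the 20 other granule-poor wells (poor) and the 11 monocyte-marker wells (poor + mono). Cybb separates the granule-rich wells (20.0 to 106) from the 20 other granule-poor wells (0 to 13.0), Csf3r and Ccl6 separate them in the other direction, and Ccr2 is at 10.2 to 78.5 in the monocyte-marker wells.

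Ifitm6 is an interferon-inducible transmembrane gene outside the granule lists. It ran from 10.7 to 62.6 UMIs per 10000 (median 32.6) in the granule-rich wells and from 0 to 13.0 (median 3.93) in the 20, a log2 ratio of 2.98 (2.35 to 3.68). Its relative Ifitm3 was at 0.05 (-0.57 to 0.71), and Ly6e, a surface protein gene of the same list, was at -2.28 (-3.01 to -1.57). The remaining genes among the 10 highest were Lta4h, Cpne3, Adpgk, Ltb4r1, Itgb2l and I830127L07Rik, a gene known by its clone name, with 206 UMIs against 9 (2.95, 2.00 to 4.10).

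Most genes of gelatinase granules and of late neutrophils were lower in the granule-rich wells than in the 20 other granule-poor wells. The list held 28 genes, of which 15 were measured. Against all 31 granule-poor wells 3 were at least 2-fold higher and 6 at least 2-fold lower with a median log2 ratio of -0.68 (0.05 in plate row J alone), beside 12.3% and 25.5% of all genes. Against the 20 other wells 1 was higher and 11 lower with a median of -1.71, beside 15.0% and 20.9% of all genes and their median of -0.13. The summed level of the list was 18.4 to 391 UMIs per 10000 (median 86.1) in the granule-rich wells. It was 170 to 737 (median 404) in the 20 other wells and 12.7 to 41.8 (median 23.7) in the 11 monocyte-marker wells. The medians of the 2 kinds of granule-poor wells thus lay on either side of that of the granule-rich wells, whose range overlapped with both. In the middle wells 14 of the 15 genes had a summed level between those of the granule-rich and the 20 wells, beside 61.2% of the 407 genes. Without the 2 middle wells above 1% monocyte markers it was 12 of 15, beside 62.7% of the 407 genes.

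Csf3r, the receptor for G-CSF, and Ccl6, a chemokine, were the only 2 of 407 genes whose level in every granule-rich well lay below every one of the 20. Csf3r ran from 0 to 8.74 UMIs per 10000 (median 2.65) in the granule-rich wells and from 13.8 to 61.8 (median 26.5) in the 20, a log2 ratio of -3.40 (-3.92 to -2.90). Ccl6 had a UMI in 3 of 31 granule-rich wells (up to 5.24) and in 20 of 20 (5.83 to 73.0, median 25.4), with 5 UMIs against 155 and a log2 ratio of -6.52 (-8.16 to -5.26). Cxcr2, the chemokine receptor that draws neutrophils out of the marrow, ran from 0 to 18.6 (median 2.63) against 5.95 to 49.1 (median 23.5), a log2 ratio of -2.60 (-3.08 to -2.14). Selplg, which encodes a ligand for P-selectin, was at -2.51 (-3.23 to -1.83).

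Retnlg, which encodes resistin-like gamma, varied widely within each group. It ran from 0 to 274 UMIs per 10000 (median 14.8) in the granule-rich wells, from 1.88 to 446 (median 223) in the middle wells and from 9.21 to 407 (median 193) in the 20 other granule-poor wells, with a log2 ratio of -1.83 (-1.97 to -1.69). Mmp9, gelatinase itself, was at -0.34 (-0.64 to -0.02), and the range of the 20 wells (9.21 to 42.1) lay inside that of the granule-rich wells (0 to 60.1). The stefin genes Stfa2l1 and Gm5483, which encode inhibitors of cysteine proteases, gave 8 and 1 UMIs in the granule-rich wells and 120 and 88 in the 20. Gm5483 was found in 8 and Stfa2l1 in 10 of the 20 wells, at up to 116 and 94.1 UMIs per 10000. Stefin genes are near-identical copies, so their counts may be shared. Trem3, a receptor gene of the same list, went against it, at 1.32 (0.25 to 2.60). Fpr2 of that list also had the higher median in the granule-rich wells, at 8.88 against 4.79 UMIs per 10000 in the 20. Its highest well was among the 20 (35.7 against 23.3).

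Srgn encodes serglycin, the proteoglycan that packs proteases into granules. It was in the list of primary granule genes and was low in the granule-rich wells, at 0 to 4.74 UMIs per 10000 (median 1.33) against 4.46 to 48.6 (median 27.2) in the 20, a log2 ratio of -4.10 (-4.85 to -3.43). The enzymes of primary granules Mpo, Elane and Prtn3 were nearly absent from both groups: Mpo gave 0 and 1 UMIs, Elane 4 and 1, and Prtn3 3 and 2. Mpeg1, which encodes perforin-2 and is on the monocyte list, was at -3.99 (-5.29 to -2.89), Ccr1, a chemokine receptor gene, at -3.28 (-4.26 to -2.39) and Ctsd, encoding cathepsin D of lysosomes, at -2.68 (-3.57 to -1.84). The 10 lowest genes of this comparison were each lower in all 4 plate rows, except Trim30b and Ctsd in row J. There both sums of these genes were at or under the floor of 3 UMIs, so the ratio cannot be read.

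**Figure D3:**
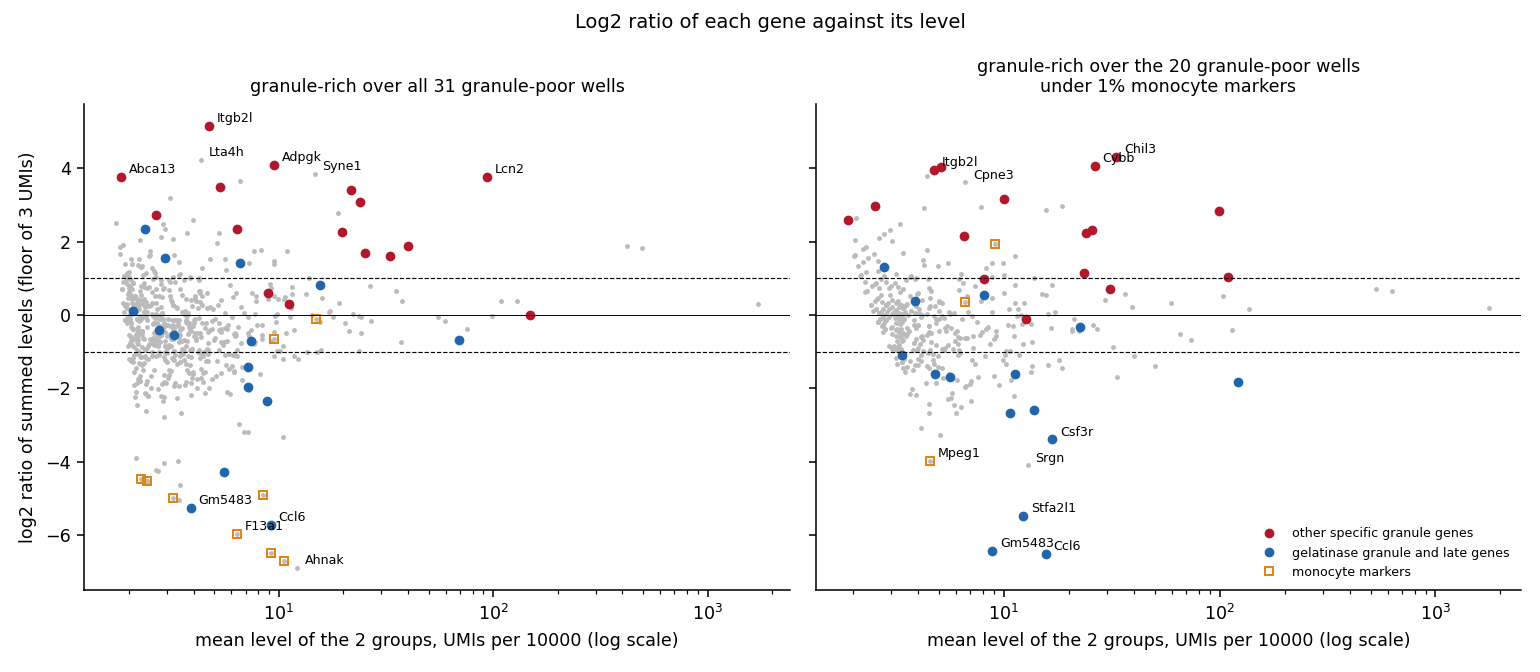
Log2 ratio of the summed level in the granule-rich wells over all 31 granule-poor wells (left) and over the 20 under 1% monocyte markers (right), against the mean level of each gene on a log scale; grey points are all genes with at least 50 UMIs, colours mark 3 lists, and dashed lines mark 2-fold. Specific granule genes (red) lie above 0 in both panels except Lyz2 on the left (-0.01) and Hp on the right (-0.10), late genes (blue) lie mostly below, and most monocyte markers (squares) are measured only on the left.

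S100a8 and S100a9 were high in both kinds of neutrophil wells. S100a8 ran from 313 to 964 UMIs per 10000 (median 671) in the granule-rich wells and from 87.5 to 753 (median 438) in the 20 other granule-poor wells, a log2 ratio of 0.72 (0.65 to 0.79). S100a9 was at 0.66 (0.60 to 0.73). With the 11 monocyte-marker wells included both ratios passed 2-fold, at 1.89 and 1.84. S100a6 and S100a11, calcium-binding proteins of the same family, were lower in the granule-rich wells, at -1.68 (-1.94 to -1.42) and -1.11 (-1.34 to -0.88). Of 5 measured S100 and annexin genes 1, Anxa1, was past 2-fold higher and 2 were past 2-fold lower, beside 15.0% and 20.9% of all genes.

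Of 18 measured adhesion and chemotaxis genes, 3 were at least 2-fold higher and 9 at least 2-fold lower against the 20 wells (median -0.76), beside 15.0% and 20.9% of all genes, so that the share of higher genes was near that of all genes. The higher ones were Itgb2l, Ly6c2 and Itgam. Itgam encodes the alpha chain of Mac-1, one of the sorted surface proteins, and gave a log2 ratio of 1.59 (1.03 to 2.21), while its partner Itgb2 was at -0.02 (-0.46 to 0.43). Ly6c2, 1 of the genes of the Gr1 antigens, was at 1.93 (1.25 to 2.69), with reads that may be shared with Ly6c1, and Ly6g, the other, gave 8 UMIs in the granule-rich wells and 0 in the 20. Of 15 measured genes of the actin cytoskeleton 1, Capg, was past 2-fold higher and 0 lower, with a median of 0.08. None of the 3 measured glycolytic enzymes was past 2-fold, with Pkm at 0.00 and Ldha at 0.96.

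Genes of cell division were near their limit of detection. None of the DNA replication genes reached 50 UMIs in either comparison, and the 20 found in the table gave 75 UMIs in the granule-rich wells and 22 in the 20, or 5.06 and 4.39 UMIs per 10000. The mitosis list gave 29.1 and 22.8 UMIs per 10000 (log2 ratio of the sums 0.35, 0.05 to 0.67), but the median well lay the other way, at 15.7 (highest 170) against 23.9 (highest 40.9). The median well of the DNA replication genes was at 3.55 and 4.39. Mki67, a marker of cycling cells, was at 0.90 (-0.09 to 2.03). The endoplasmic reticulum and secretory list was at 21.9 and 13.0 UMIs per 10000 (0.76, 0.37 to 1.16).

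Cytosolic ribosomal protein genes were low in the granule-rich wells only while the 11 monocyte-marker wells were included. Against all 31 granule-poor wells 31 of 33 measured genes were at least 2-fold lower in the granule-rich wells (median -1.56), beside 25.5% of all genes. Against the 20 other wells 0 of 10 were past 2-fold in either direction (median 0.08), beside 15.0% higher and 20.9% lower of all genes. Their summed level was 90.6 UMIs per 10000 in the granule-rich wells, 86.6 in the 20 and 392 in the 11. Of the monocyte list 7 of 9 measured genes were lower against all 31 wells (median -4.92), and 1 was lower and 1 higher of 3 against the 20. The limit on that list partly fixed the counts against the 20. Mitochondrially encoded genes were at 104, 86.8 and 186 UMIs per 10000 in the sums and at 69.2, 54.9 and 90.2 in the median well, and 1 of the 11 wells was at 878.

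**Figure D4:**
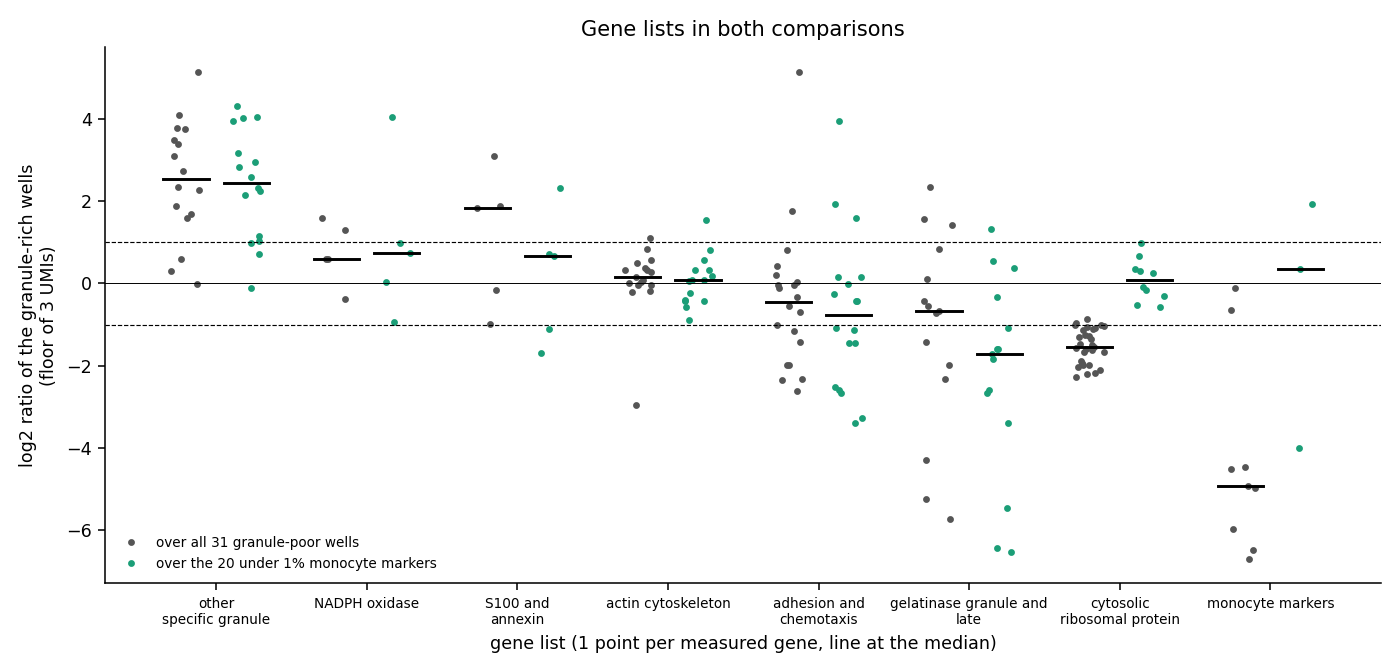
Log2 ratio of each measured gene of 8 lists in the granule-rich wells over all 31 granule-poor wells (grey) and over the 20 under 1% monocyte markers (green), with the median as a bar and dashed lines at 2-fold. The median of the other specific granule genes is 2.54 and 2.44, that of the gelatinase granule and late genes -0.68 and -1.71, and that of the ribosomal protein genes -1.56 and 0.08.

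The 11 monocyte-marker wells were high in monocyte genes and lacked neutrophil genes that the 20 other granule-poor wells held. Of 264 genes measured, 35.6% were at least 2-fold higher and 25.0% at least 2-fold lower, and 9 of 9 measured monocyte markers were higher, which the limit on that list partly fixed. Ccr2, the chemokine receptor that takes monocytes out of the marrow, ran from 10.2 to 78.5 UMIs per 10000 in the 11 (median 24.4) and had 1 UMI in the 20. Fn1, encoding fibronectin, gave 240 UMIs against 0, a log2 ratio of at least 5.97 against a floor of 3 UMIs, and F13a1, encoding coagulation factor XIII, gave 144 against 0 (at least 5.23). Ahnak, a large scaffold protein gene that is not on the list, ran from 12.7 to 69.4 against 0 to 4.68, and Tmsb10, a thymosin gene, gave 131 UMIs against 1. Ahnak, Ms4a6c, Rpl34 and Ccr2, 4 of the 264 genes, were higher in every 1 of the 11 wells than in every 1 of the 20. Ccr2, Fn1, F13a1 and Ms4a6c are on the monocyte list that split these wells, so their values were partly fixed in advance.

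In the other direction 9 of the 264 genes were lower in every one of the 11 wells than in every one of the 20. They were Cxcr2, S100a9, S100a11, S100a8, Grina, Csf3r, Retnlg, Mmp9 and Gda. S100a9 ran from 0 to 6.11 UMIs per 10000 (median 2.62) against 101 to 974 (median 492), a log2 ratio of -7.29 (-8.00 to -6.65). Cxcr2 gave 0 UMIs against 119. The summed level of the specific granule list was higher in the 11 (294 against 183 UMIs per 10000), and Lyz2, Chil3 and Cybb, which are on that list, gave 1340, 179 and 173 UMIs in the 11 wells. Of the 9 members measured there 3 were higher and 4 lower, beside 35.6% and 25.0% of the 264 genes. Of the other markers, those of B lymphocytes gave 23 and 18 UMIs, those of T lymphocytes 1 and 4, and those of macrophages 7 and 2 in the 11 and the 20. Eosinophil markers gave 6 and 1, basophil and mast cell markers 4 and 0, progenitor markers 4 and 9, and dendritic cell and MHC II markers 32 and 6. The granule-rich wells had 21, 13, 6, 12, 6, 28 and 9 UMIs on the same lists in that order, and none of their genes reached 50 UMIs.

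The fluorescence recorded at the sort was not used by the rule. Gr1 fluorescence ran from 871 to 37446 (median 14077) in the granule-rich wells, from 12301 to 39108 (median 21718.5) in the 20 other granule-poor wells and from 736 to 1987 (median 1128) in the 11, in arbitrary units. The 11 wells thus did not overlap with the 20, and the granule-rich wells reached down to the range of the 11. Side scatter (SSC-A), which rises with granularity, ran from 27008 to 90240 (median 43264), from 49088 to 176000 (median 70560) and from 18624 to 37888 (median 26880). In 7.74% of the 620 pairs of 1 granule-rich well and 1 of the 20 wells, the granule-rich well had the higher SSC-A, and in 19.0% the higher Gr1.

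CD44 fluorescence had a median of 16501 in the granule-rich wells, 20007 in the 20 and 11016 in the 11. The median of c-Kit, the receptor of early progenitors, was 331, 174.5 and 23, with ranges that overlapped, and that of Mac-1 was 1354, 1116.5 and 1110. Against all 31 granule-poor wells the medians of Gr1 and SSC-A were 14077 against 17652 and 43264 against 56640, which mixes the high values of the 20 and the low values of the 11.

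Among the 31 granule-rich wells, those with more Gr1 and CD44 fluorescence had higher levels of the late genes. The summed level of the gelatinase granule and late genes had a Spearman correlation of 0.77 with Gr1 fluorescence (Pearson 0.66) and 0.77 with CD44 (0.78). The late genes also had one of -0.40 with the number of UMIs (-0.34), and all wells share a mouse, a plate and a sort. The share of Ltf, Camp and Ngp that chose these wells moved with each of them. Its correlation was -0.59 with the late genes (-0.57), -0.61 with Gr1 (-0.59) and -0.67 with CD44 (-0.63). In the 20 other granule-poor wells the late genes had a correlation of 0.02 with CD44 (-0.03) and of -0.00 with Gr1 (-0.12).

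**Figure D5:**
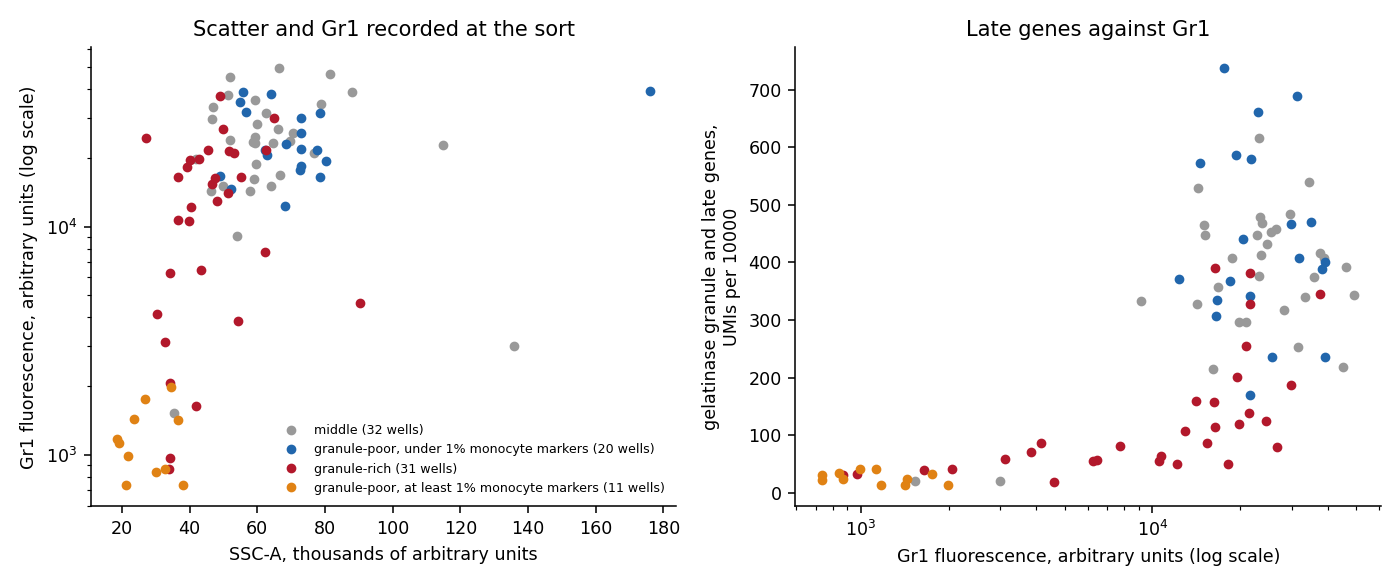
Gr1 fluorescence (log scale) against side scatter for the 94 wells (left), and the summed level of the gelatinase granule and late genes in UMIs per 10000 against Gr1 fluorescence (log scale, right), 1 point per well. The 11 monocyte-marker wells (orange) lie at 736 to 1987 Gr1 units and at 12.7 to 41.8 UMIs per 10000, the granule-rich wells (red) reach from 871 to 37446 Gr1 units, and the 20 other granule-poor wells (blue) lie at 12301 or more.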

How the data were processed

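Single cells were index-sorted and processed with CEL-seq2. The deposited values are UMI counts, whole numbers for each gene in each well without normalization. By the paper's account of scPipe, reads are aligned, assigned to exons, demultiplexed by designed barcodes and collapsed to UMIs. For the aligner version, genome build, annotation and strand, the entry is: not given in the sources used here. Hence overlapping and antisense genes cannot be told apart. The table held 374 labelled wells, 9 unmatched columns that were not used, and 19829 mouse genes, 19755 of which had a symbol in GENCODE M21. The members and lists were chosen with earlier results of these data known.

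The UMIs of the wells of a group were summed and divided by all mouse UMIs except those of Ltf, Camp and Ngp, which came to 148186 in the granule-rich, 50108 in the 20 other granule-poor and 64092 in the 11 monocyte-marker wells. Genes with at least 50 UMIs in the groups compared were measured, and sums under 3 UMIs were set to 3 UMIs for ranking, counts and medians. A call is a ratio of at least 2-fold. Genes named are the 10 highest and 10 lowest found in 25% or more of the higher group's wells, members past 2-fold from each list and up to 4 others. Some genes of the lists are counted but not reported here by name. No doublet caller was run, since 1 cell was sorted per well. The computation was tested on simulated data. Python 3.11.15, numpy 2.4.6, pandas 2.3.3 and scipy 1.17.1 were used, with scran 1.30.0 and edgeR 4.0.16 (R 4.3.3) for size factors in the alternatives. The alternatives changed the denominator, scaling, minimum counts, division of the wells, plate rows, depth and single wells, and 4 of them were chosen after seeing the data.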

Additional observations from a re-analysis of the deposited data

Results flagged for a closer look

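Among the 32 middle wells, 2 had a signal outside the comparisons. In well J6 the monocyte markers took 2.09% of the UMIs, while the highest T lymphocyte well had 0.0871%. Its S100a8 and S100a9 share was 0.113% and its Gr1 fluorescence 1531, both within the range of the 11 monocyte-marker wells. In well I13 the monocyte markers took 1.14%, and Mpo, Elane and Prtn3, the primary granule enzymes of promyelocytes, reached 109 UMIs per 10000 (239 UMIs), against at most 6.87 (2 UMIs) in each of the other 93 wells. I13 also had 22425 UMIs, the highest FSC-A of the 94 wells at 227000 and the highest c-Kit fluorescence at 1511, and 5.34% of its UMIs were on S100a8 and S100a9. Whether I13 held 1 cell or more was not tested. Neither well enters the granule-rich or granule-poor sums.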

How the results depend on the processing

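With 1 mouse no value has a replicate check. No paired analysis was possible because all wells came from 1 mouse and the result comes from no test. Of 1397 values recomputed, 1149 were counted as the same, 244 as moved, and 4 medians that had been past 2-fold changed sign. Here the same means within a tolerance of the main value, not unchanged. For example, the 79 higher genes became 67 with Ltf, Camp and Ngp in the denominator and 113 with TMM factors. Both were counted as the same. The median of the other specific granule genes was counted as moved under no alternative. 4 alternatives were chosen after seeing the data. Genes at least 2-fold higher in the granule-rich wells (79) became 421, 36 and 442 with minimums of 10, 100 and 1 UMIs per gene, 19 after thinning to 1000 UMIs and 51 when the wells under 1% monocyte markers were divided anew. Genes at least 2-fold lower (164) became 1056, 58 and 1648 with these minimums, 17 after thinning, 106 with TMM factors, 106 with median of ratios factors, 103 with scran factors, 84 without the 10% of wells highest in monocyte markers, 85 without wells of at least 1% and 97 when divided anew. Against the 20 other granule-poor wells the higher genes (61) became 236, 32 and 236 with the same minimums, 31 in plate row J and 16 after thinning, and the lower genes (85) became 527, 31, 1323 and, after thinning, 15. The median of the gelatinase granule and late genes (-0.68) was -1.41 with a minimum of 100 UMIs, -1.32 with the highest and lowest 25% of wells, -1.55, -1.35 and 0.05 in plate rows H, I and J, -1.54 after thinning, -1.28 without the 10% of wells, -1.71 without wells of at least 1% and -1.66 when divided anew. That of the ribosomal protein genes (-1.56) was -0.85 with scran factors, -0.72 without the 10% of wells, and reversed to 0.08 without wells of at least 1% and 0.22 when divided anew. That of the monocyte markers (-4.92) was -3.84 with scran factors, -2.95 with the wells cut at the median, -2.75 by Camp alone, -3.01, -1.55, -3.26 and -3.45 in plate rows G to J, -0.07 after thinning, -2.47 without the 10% of wells, and reversed to 0.35 without wells of at least 1% and 0.18 when divided anew. Wells left out for their monocyte markers were chosen by this same list, so its values without them were partly fixed in advance. Fewer genes reach 50 UMIs after thinning and more at a lower minimum; the cause was not tested for the other values. Genes of a few UMIs cannot be compared at this depth.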
